A study of Rattus norvegicus with 4 samples.

Results

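The miR-10, miR-99, miR-100 and miR-125 family is described here in H9c2 cells and in the exosomes they released, under hypoxia and under normoxia. Its members were taken by name from the table of mature rat miRNAs, 10 of the 765 miRNAs listed there. They are rno-miR-10a-5p, rno-miR-10b-5p, rno-miR-99a-5p, rno-miR-99b-5p, rno-miR-100-5p, rno-miR-125a-5p, rno-miR-125a-3p, rno-miR-125b-5p, rno-miR-125b-1-3p and rno-miR-125b-2-3p, written below without the species prefix. The suffix gives the arm of the hairpin from which the mature miRNA is cut.

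H9c2 is an immortal cardiomyoblast line from rat heart, used as a model of heart muscle cells, and the same line served in every group. The 4 groups were hypoxic exosomes, normoxic exosomes, hypoxic cells and normoxic cells, all collected at 48 h. Hypoxia was made in a closed chamber with an AnaeroPack, which absorbs oxygen, and normoxic cells were kept in air with CO2. All cells grew in medium with serum that had been depleted of exosomes, and exosomes were pelleted from that medium by ultracentrifugation. Each group was 1 small RNA library, so differences between groups had no replicate check and no test between them was possible. The study's methods give a sample number for RNA extraction, and whether a library pooled several extractions is not stated. Intervals given below are 95% exact (Clopper-Pearson) intervals, which cover counting error only, because PCR reads are not independent molecules.

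The values are RPM, read numbers divided by a total set for each library, and miRNAs with fewer than 10 reads are listed at 0. The spacing of the values in each library, with 1 step taken as 1 read, places the scale at 12353415 reads in hypoxic exosomes, 11866515 in normoxic exosomes, 13285239 in hypoxic cells and 10404866 in normoxic cells. Known miRNAs took very different parts of these inferred reads. Hypoxic exosomes had 108860 miRNA reads (0.881%) and normoxic exosomes 13598 (0.115%), whereas hypoxic cells had 3578371 (26.9%) and normoxic cells 5310302 (51.0%). Ratios are therefore given on the RPM scale and also as ratios of each miRNA's share of the miRNA reads of its library. A lower RPM can mean less of a miRNA or more of other small RNA, and fewer cells and less RNA per cell cannot be told apart.

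As background, miRNAs are short RNAs that guide Argonaute proteins to messenger RNAs, mainly through the seed near the 5′ end, and so lower the output of those messages. The miR-10 genes lie in Hox gene clusters and repress Hox genes in vertebrates. The miR-99 and miR-100 miRNAs repress mTOR in mammalian cells, and miR-125 is the vertebrate relative of the worm miRNA lin-4, known for roles in differentiation and, for miR-125b, for repressing p53 in human and zebrafish cells. Each hairpin gives a duplex of both arms, of which one is usually kept in Argonaute and the other is mostly lost.

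Mature sequences from RefSeq (assembly GRCr8) were matched by name for 9 of the 10 members. The member without one was miR-99a-5p, so its seed was not read and it enters no sum by seed below. The sequences of the 5p arms are shown because they set which members share a seed, bases 2 to 8, given in capitals.
miR-10a-5p: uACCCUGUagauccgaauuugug
miR-10b-5p: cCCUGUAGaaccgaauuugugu
miR-99b-5p: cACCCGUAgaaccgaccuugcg
miR-100-5p: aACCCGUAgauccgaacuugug
miR-125a-5p: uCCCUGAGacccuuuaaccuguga
miR-125b-5p: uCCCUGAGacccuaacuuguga

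Among the members with a matched sequence, the seed ACCCGUA was shared by miR-99b-5p and miR-100-5p, which differed at 4 of 22 bases. The seed CCCUGAG was shared by miR-125a-5p and miR-125b-5p, which were 3 edits apart (substitutions, insertions or deletions), and also by miR-351-5p, a miRNA outside the family. miR-10a-5p and miR-10b-5p differed at 1 of 21 aligned bases. Their annotated 5′ ends were offset by 2 bases, which gave them the seeds ACCCUGU and CCUGUAG.

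The 3p arms of miR-125 are shown because miR-125b-1-3p held a larger share in exosomes than in cells. Here the capitals mark the letters GGAG, which the text returns to below.
miR-125a-3p: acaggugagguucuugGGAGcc
miR-125b-1-3p: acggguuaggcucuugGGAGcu
miR-125b-2-3p: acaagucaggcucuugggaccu

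The arms miR-125a-3p and miR-125b-1-3p differed at 4 of 22 bases. Both miR-125b hairpins give the same 5p miRNA, so miR-125b-5p counts the products of Mir125b1 and Mir125b2, while miR-125b-1-3p comes from Mir125b1 alone.

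miR-10a-5p, the miRNA of the Hoxb cluster, was the second most abundant member in hypoxic cells and the most abundant in normoxic cells. It had 45.8 RPM in hypoxic exosomes, 3.03 RPM in normoxic exosomes, 5715 RPM in hypoxic cells and 12331 RPM in normoxic cells. It ranked 6 among all miRNAs of hypoxic cells and 5 among those of normoxic cells, and its level was lower in both exosome libraries than in either library of cells. miR-10b-5p, the miRNA of the Hoxd cluster, had 5.02 RPM in hypoxic exosomes, was listed at 0 in normoxic exosomes, and had 445 RPM in hypoxic cells and 1072 RPM in normoxic cells. At the share it held in hypoxic exosomes, miR-10b-5p would have had 7.75 reads in normoxic exosomes, under the 10 reads below which a miRNA is listed at 0, so its absence there is not shown at this depth. Within a library miR-10a-5p had 9.13 times the reads of miR-10b-5p in hypoxic exosomes (interval 7.01 to 12.1), 12.8 times in hypoxic cells (12.5 to 13.2) and 11.5 times in normoxic cells (11.3 to 11.7).

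In the miR-99 and miR-100 group, miR-99b-5p and miR-100-5p were abundant and miR-99a-5p was scarce. miR-99b-5p had 15.6 RPM in hypoxic exosomes, 1.94 RPM in normoxic exosomes, 2295 RPM in hypoxic cells and 4324 RPM in normoxic cells. miR-100-5p had 27.6 RPM in hypoxic exosomes, 6.74 RPM in normoxic exosomes, 1529 RPM in hypoxic cells and 2374 RPM in normoxic cells. The order of this pair thus differed between exosomes and cells. miR-99b-5p had 0.566 times the reads of miR-100-5p in hypoxic exosomes (0.472 to 0.677) and 0.288 times in normoxic exosomes (0.173 to 0.462), against 1.5 times in hypoxic cells (1.47 to 1.53) and 1.82 times in normoxic cells (1.79 to 1.85). miR-99a-5p had 2.91 RPM in hypoxic exosomes, 1.18 RPM in normoxic exosomes, 14.8 RPM in hypoxic cells and 31.1 RPM in normoxic cells. With 36 reads in hypoxic exosomes and 14 in normoxic exosomes, it was the least precise member found in all 4 libraries. Mature miR-99a-5p and miR-100-5p are close in sequence, and since the counting method is not given in the sources used here, how reads were divided between them is uncertain.

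Among the 5p arms of miR-125, miR-125b-5p was the most abundant member in hypoxic cells. It had 7.45 RPM in hypoxic exosomes, 2.53 RPM in normoxic exosomes, 7068 RPM in hypoxic cells and 9490 RPM in normoxic cells, and it ranked 5 among all miRNAs of hypoxic cells and 7 among those of normoxic cells. miR-3588, named after its values were seen, is the exact reverse complement of miR-125b-5p on the other strand at Mir125b2. It had 1.30 RPM in hypoxic exosomes, was listed at 0 in normoxic exosomes, and had 14.2 RPM in hypoxic cells and 16.0 RPM in normoxic cells. Whether the counting used strand is not stated, so reads of the pair may not be fully separated. miR-125a-5p had 0.971 RPM in hypoxic exosomes, from 12 reads, was listed at 0 in normoxic exosomes, and had 1339 RPM in hypoxic cells and 1639 RPM in normoxic cells. Under hypoxia these 5p arms were the members whose level in exosomes was lowest for their level in cells.

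The 3p arms of miR-125 had another order. miR-125b-1-3p had 115 RPM in hypoxic exosomes, 12.98 RPM in normoxic exosomes, 157 RPM in hypoxic cells and 459 RPM in normoxic cells. It ranked 15 in hypoxic exosomes and 12 in normoxic exosomes, against 90 in hypoxic cells and 69 in normoxic cells. miR-125a-3p had 1.30 RPM in hypoxic exosomes, was listed at 0 in normoxic exosomes, and had 7.60 RPM in hypoxic cells and 16.6 RPM in normoxic cells. miR-125b-2-3p, the 3p arm of the second miR-125b hairpin, was found in hypoxic cells alone, with 2.11 RPM from 28 reads. At that share of miRNA reads it would have passed 10 reads in normoxic cells but in neither exosome library, so its absence from exosomes is not shown. At their shares in hypoxic exosomes miR-125a-5p and miR-125a-3p would have had 1.5 and 2.0 reads in normoxic exosomes, so that neither was detectable at this depth.

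**Figure D1:**
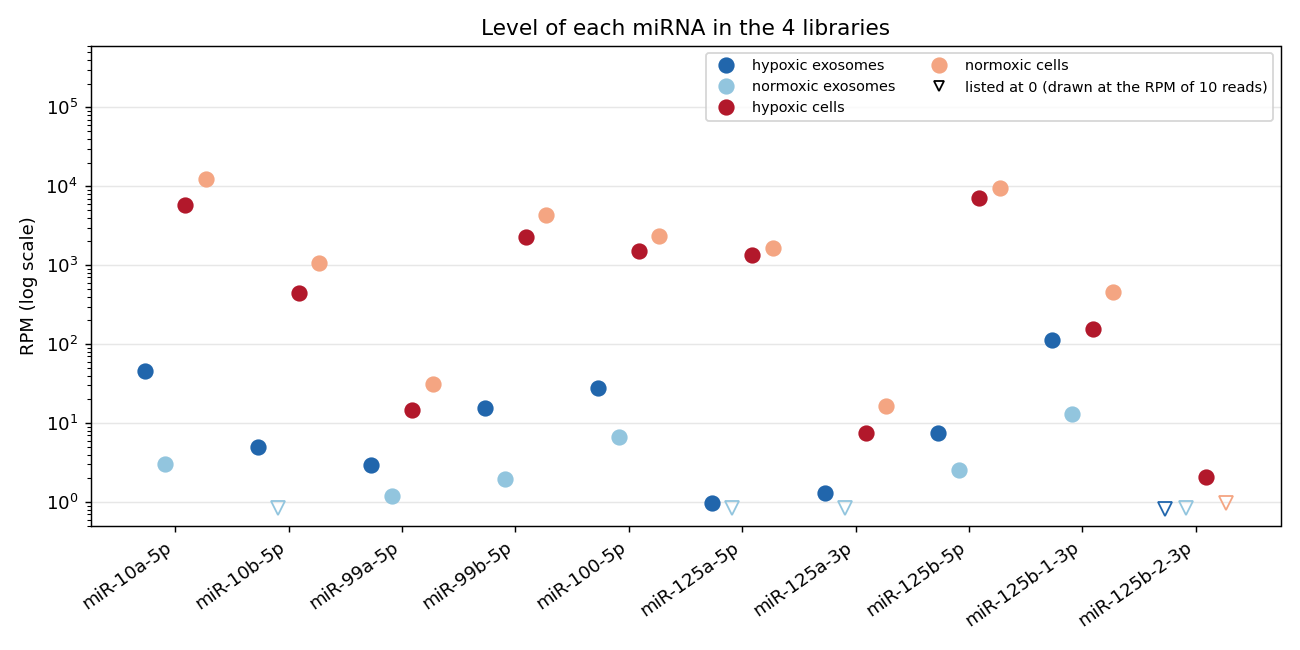
Level of each of the 10 miRNAs in RPM on a log axis, 1 point per library, with open triangles at the RPM of 10 reads for values listed at 0. miR-125b-1-3p is the one member whose level in hypoxic exosomes (115 RPM) lies close to that in hypoxic cells (157 RPM).

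Of all miRNA reads, the family as a whole took 2.51% in hypoxic exosomes (2.42% to 2.61%), 2.48% in normoxic exosomes (2.22% to 2.75%), 6.90% in hypoxic cells (6.87% to 6.92%) and 6.22% in normoxic cells (6.20% to 6.24%). Its make-up differed between exosomes and cells. miR-125b-1-3p supplied 51.8% of the family's reads in hypoxic exosomes (49.9% to 53.7%) and 45.7% in normoxic exosomes (40.3% to 51.2%), against 0.845% in hypoxic cells (0.809% to 0.882%) and 1.45% in normoxic cells (1.41% to 1.49%). miR-125b-5p supplied 3.37% in hypoxic exosomes and 8.90% in normoxic exosomes, against 38.1% in hypoxic cells and 29.9% in normoxic cells. miR-10a-5p supplied 20.7% in hypoxic exosomes, 10.7% in normoxic exosomes, 30.8% in hypoxic cells and 38.9% in normoxic cells.

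The first comparison asked how hypoxia altered the miRNAs of the cells. By RPM every one of the 9 members found in both libraries of cells was lower in hypoxic than in normoxic cells, with a median ratio of 0.474, beside 0.612 over the 316 miRNAs found in both. The remaining member, miR-125b-2-3p, was listed in hypoxic cells alone and gave no ratio. Of the 9 members, 5 had a ratio below 0.5, where 27.8% of the 316 miRNAs did, and 0 had a ratio above 2, where 1.27% did. The lowest was miR-125b-1-3p at 0.342 (0.324 to 0.360), followed by miR-10b-5p at 0.415 (0.402 to 0.428), miR-125a-3p at 0.457 (0.354 to 0.588), miR-10a-5p at 0.464 (0.459 to 0.468) and miR-99a-5p at 0.474 (0.395 to 0.568). The highest were the 5p arms of miR-125, with 0.817 for miR-125a-5p (0.80 to 0.834) and 0.745 for miR-125b-5p (0.738 to 0.751). Between them lay miR-99b-5p at 0.531 and miR-100-5p at 0.644. The order from the highest ratio thus ran from the miR-125 5p arms through miR-100-5p and miR-99b-5p to the other members. The wide intervals of miR-99a-5p and miR-125a-3p overlapped each other and held those of miR-10a-5p, miR-10b-5p and miR-99b-5p (0.523 to 0.5385). The places of miR-99a-5p and miR-125a-3p in this order are thus not resolved.

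The miRNA total itself was lower in hypoxic than in normoxic cells, by 0.92 on the log2 scale. As shares of the miRNA reads, 0 of the 9 members were above 2 (11.7% of the 316 miRNAs were) and 0 were below 0.5 (3.8% were). The median of the members was 0.898, beside 1.16 over all 316. On this scale 4 members were above 1, namely miR-125a-5p at 1.55 (1.52 to 1.58), miR-125b-5p at 1.41 (1.40 to 1.42), miR-100-5p at 1.22 (1.20 to 1.24) and miR-99b-5p at 1.01 (0.991 to 1.02). The remaining members stood below 1, miR-125b-1-3p lowest at 0.647 (0.614 to 0.681), then miR-10b-5p at 0.786 (0.762 to 0.811) and miR-10a-5p at 0.878 (0.870 to 0.886), while the intervals of miR-99a-5p and miR-125a-3p held 1. Thus the direction of the 5p arms of miR-125 and of miR-100-5p in hypoxic cells turned with the scale, and that of miR-10a-5p, miR-10b-5p and miR-125b-1-3p did not.

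The 3p and 5p arms were also compared between the libraries of cells. Within a library no scaling enters, and miR-125b-1-3p had 0.0222 reads for each read of miR-125b-5p in hypoxic cells (0.0212 to 0.0232), against 0.0484 in normoxic cells (0.0470 to 0.0498). miR-125a-3p had 0.00568 reads for each of miR-125a-5p in hypoxic cells (0.00462 to 0.00690), against 0.0101 in normoxic cells (0.00868 to 0.0118). In both pairs the 3p arm was thus less frequent relative to the 5p arm in the hypoxic library. For miR-99b the ratio was 0.0313 in hypoxic cells (0.0293 to 0.0333), against 0.0425 in normoxic cells (0.0405 to 0.0444). The miR-10 hairpins had values in the other order, with overlapping intervals, 0.00371 in hypoxic cells (0.00329 to 0.00418) against 0.00304 in normoxic cells (0.00275 to 0.00336) for miR-10a, and 0.0330 in hypoxic cells (0.0285 to 0.0381) against 0.0264 in normoxic cells (0.0234 to 0.0296) for miR-10b. Over the 86 hairpins with both arms found in both libraries of cells, the median of this change in arm ratio was 1.08 times.

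The second comparison asked the same of the exosomes. By RPM all 6 members found in both libraries were above 2 in hypoxic over normoxic exosomes, where 84.9% of the 73 miRNAs found in both were, and 0 were below 0.5, where 1.37% were. The median of the members was 6.08, beside 6.73 over all 73, so that the members stood near the other miRNAs of the exosomes. The ratio was 15.1 for miR-10a-5p (10.8 to 21.8), 8.83 for miR-125b-1-3p (7.47 to 10.5) and 8.06 for miR-99b-5p (5.22 to 13.02). It was 4.09 for miR-100-5p (3.20 to 5.29), 2.95 for miR-125b-5p (1.93 to 4.61) and 2.47 for miR-99a-5p (1.30 to 4.96). The members thus differed among themselves. The interval of miR-10a-5p lay above those of miR-125b-1-3p, miR-100-5p, miR-125b-5p and miR-99a-5p and overlapped that of miR-99b-5p.

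The miRNA total was higher in hypoxic than in normoxic exosomes, by 2.94 on the log2 scale. As shares of the miRNA reads, 0 of the 6 members were above 2 (13.7% of the 73 miRNAs were) and 2 were below 0.5 (28.8% were). These were miR-99a-5p at 0.321 (0.169 to 0.645) and miR-125b-5p at 0.383 (0.251 to 0.599). miR-100-5p stood at 0.532 (0.416 to 0.688). The share of these members was thus lower in hypoxic exosomes although their RPM was higher. miR-10a-5p was higher on both scales, with a share ratio of 1.96 (1.40 to 2.83), and the share ratios of miR-125b-1-3p (1.15, 0.972 to 1.37) and miR-99b-5p (1.05, 0.679 to 1.69) had intervals that held 1.

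**Figure D2:**
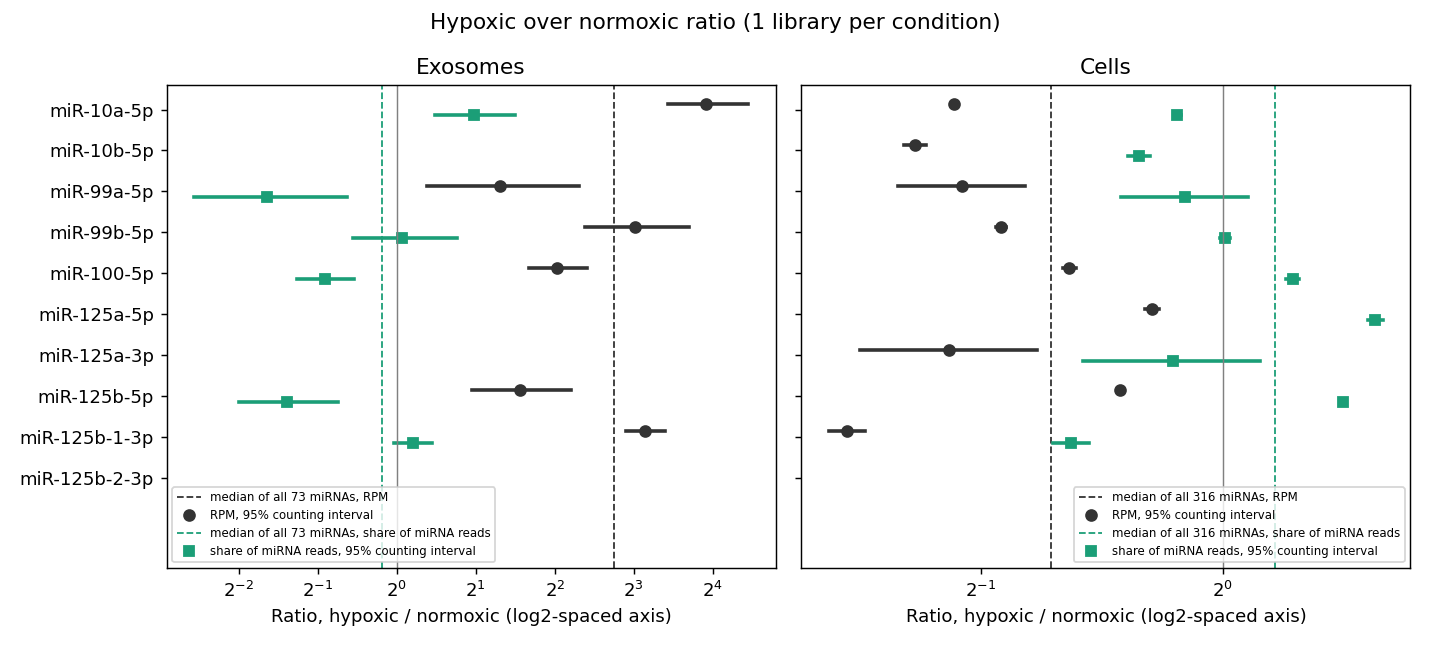
Ratio of hypoxic to normoxic libraries on a log2-spaced axis for each miRNA found in both, in exosomes (left) and in cells (right), with RPM in black and share of miRNA reads in green, bars for 95% counting intervals and dashed lines for the median of all miRNAs. In exosomes the 6 members lie between 2.47 and 15.1 by RPM and between 0.321 and 1.96 by share, and in cells the 9 members lie between 0.342 and 0.817 by RPM and between 0.647 and 1.55 by share.

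Exosomes were next set against the cells of the same condition, by share of miRNA reads. Under hypoxia 3 of 9 members were above 2 in exosomes over cells, where 44.9% of 138 miRNAs were, and 5 were below 0.5, where 31.9% were. The median was 0.345, beside 1.51 over all 138. The members above 2 were miR-125b-1-3p at 22.3 (20.9 to 23.9), with 1.30% of miRNA reads in hypoxic exosomes, against 0.0582% in hypoxic cells, miR-99a-5p at 6.04 (4.11 to 8.65) and miR-125a-3p at 5.21 (2.87 to 8.87). Both 3p arms of miR-125 found in exosomes were thus among them. At 2 times its share in hypoxic cells, however, miR-125a-3p would have fallen under 10 reads in hypoxic exosomes. Its place above 2 was therefore fixed once it was listed. A listed miR-99a-5p could likewise only stand above 1. The lowest were miR-125a-5p at 0.0222 (0.0115 to 0.0387) and miR-125b-5p at 0.0322 (0.0260 to 0.0395), ranked 136 and 133 of the 138 miRNAs from the highest. miR-99b-5p stood at 0.208, miR-10a-5p at 0.245, miR-10b-5p at 0.345 and miR-100-5p at 0.552.

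Under normoxia 2 of 6 members were above 2, where 42.5% of 73 miRNAs were, and 3 were below 0.5, where 30.1% were. The median was 0.732, beside 1.36 over all 73. miR-99a-5p stood at 16.9 (9.12 to 28.7) and miR-125b-1-3p at 12.6 (10.7 to 14.8). Even at 2 times its share in normoxic cells, miR-99a-5p would have fallen under 10 reads in normoxic exosomes. Any listed value of miR-99a-5p there was thus bound to be above 2. miR-10a-5p at 0.110 (0.0767 to 0.152), miR-125b-5p at 0.119 (0.0801 to 0.169) and miR-99b-5p at 0.200 (0.1265 to 0.2996) were lower in exosomes. miR-100-5p stood at 1.27 (1.003 to 1.575), against 0.552 (0.494 to 0.614) under hypoxia. The members on either side of 1 were the same under both conditions where both gave a value, except miR-100-5p. That exception depended on the scaling, since under normoxia miR-100-5p stood at 0.585 without miR-21-5p in the totals and at 0.934 when ratios were scaled to a median of 1.

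miR-21-5p took 2.18% of miRNA reads in hypoxic exosomes and 2.49% in normoxic exosomes, against 48.5% in hypoxic cells and 54.9% in normoxic cells. With it left out of the totals, miR-125b-1-3p stood at 11.8 under hypoxia and 5.82 under normoxia, and miR-99a-5p at 3.18 under hypoxia and 7.81 under normoxia. Both remained above 2, which for miR-99a-5p under normoxia its listing required.

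**Figure D3:**
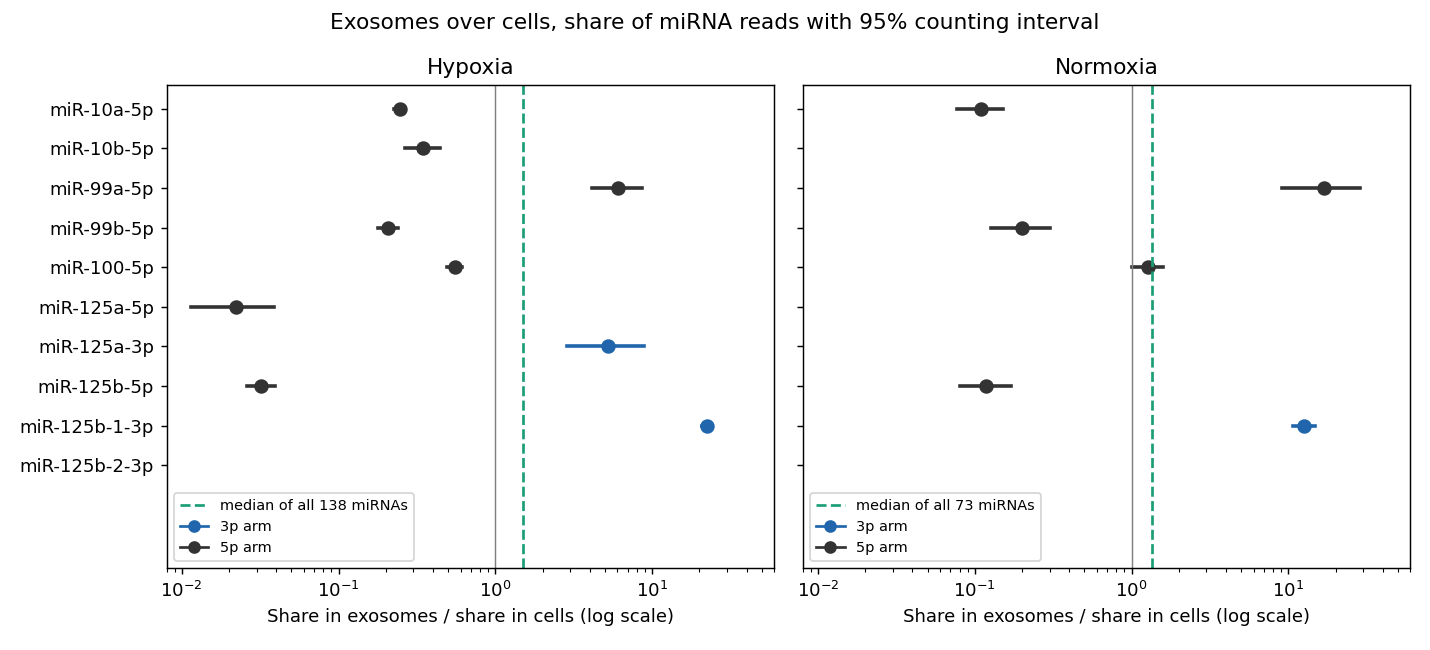
Share of miRNA reads in exosomes over that in cells on a log axis, under hypoxia (left) and normoxia (right), with 95% counting intervals, 3p arms in blue, 5p arms in black and the median of all miRNAs as a dashed line. miR-125b-1-3p lies at 22.3 under hypoxia and 12.6 under normoxia, and miR-125b-5p at 0.0322 under hypoxia and 0.119 under normoxia.

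The 3p and 5p arms were therefore compared within each library, for miR-125b with the 5p arm that both hairpins give. miR-125b-1-3p had 15.4 reads for each read of miR-125b-5p in hypoxic exosomes (12.5 to 19.2) and 5.13 in normoxic exosomes (3.45 to 7.87), against 0.0222 in hypoxic cells and 0.0484 in normoxic cells. The 3p arm was the more frequent in both exosome libraries and the rare arm in both libraries of cells. For miR-125a the ratio was 1.33 in hypoxic exosomes (0.592 to 3.09), from 16 and 12 reads, against 0.00568 in hypoxic cells. For miR-99b it was 0.653 in hypoxic exosomes (0.517 to 0.821), against 0.0313 in hypoxic cells, and for miR-10b it was 0.290 in hypoxic exosomes (0.162 to 0.497), against 0.0330 in hypoxic cells. In these hairpins the 3p arm thus took a larger part in hypoxic exosomes than in hypoxic cells, with intervals that did not overlap. Those intervals treat reads as independent, and the listing of these ratios was itself limited. A ratio needed 10 reads or more of both arms. With the arm ratio of cells, the 3p arms of miR-125a, miR-99b and miR-10b would have missed that minimum in hypoxic exosomes. By the same reckoning miR-125b-1-3p would have missed it in both exosome libraries, where it had 1416 reads under hypoxia and 154 under normoxia. Ratios of these pairs could thus be listed in exosomes only if raised. miR-10a-3p, miR-99a-3p and miR-100-3p were listed at 0 in both exosome libraries, so no ratio was possible for them there.

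Other hairpins were set beside the family. Of all 16 hairpins with both arms found in hypoxic exosomes and hypoxic cells, a comparison chosen after the data were seen, the 3p to 5p ratio was more than 2 times higher in exosomes for 11 (68.8%) and below 0.5 times for 3, with a median of 6.88 times. All 3 hairpins of the family in this set were among the 11. A hairpin entered the set only with 10 reads or more of both arms in hypoxic exosomes. At their arm ratios in hypoxic cells and their 5p reads in hypoxic exosomes, these 3p arms would have fallen below 10 reads. Their entry thus required a raised ratio, and the counts and ranks given here carry that filter. From the largest, miR-125a ranked 1 with a 235-fold difference, miR-99b ranked 3 with 20.9-fold and miR-10b ranked 5 with 8.80-fold. miR-351, which shares the miR-125 seed on its 5p arm, ranked 2 with 87.1-fold. miR-125b is outside this set, because its 5p arm comes from both hairpins. Its miR-125b-1-3p to miR-125b-5p ratio was 693-fold higher in hypoxic exosomes than in hypoxic cells, and its listing likewise required a raised ratio. Under normoxia 3 hairpins had both arms found in exosomes and cells, none of the family, with 1 more than 2 times higher in exosomes, 1 below 0.5 times and a median of 0.749 times.

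**Figure D4:**
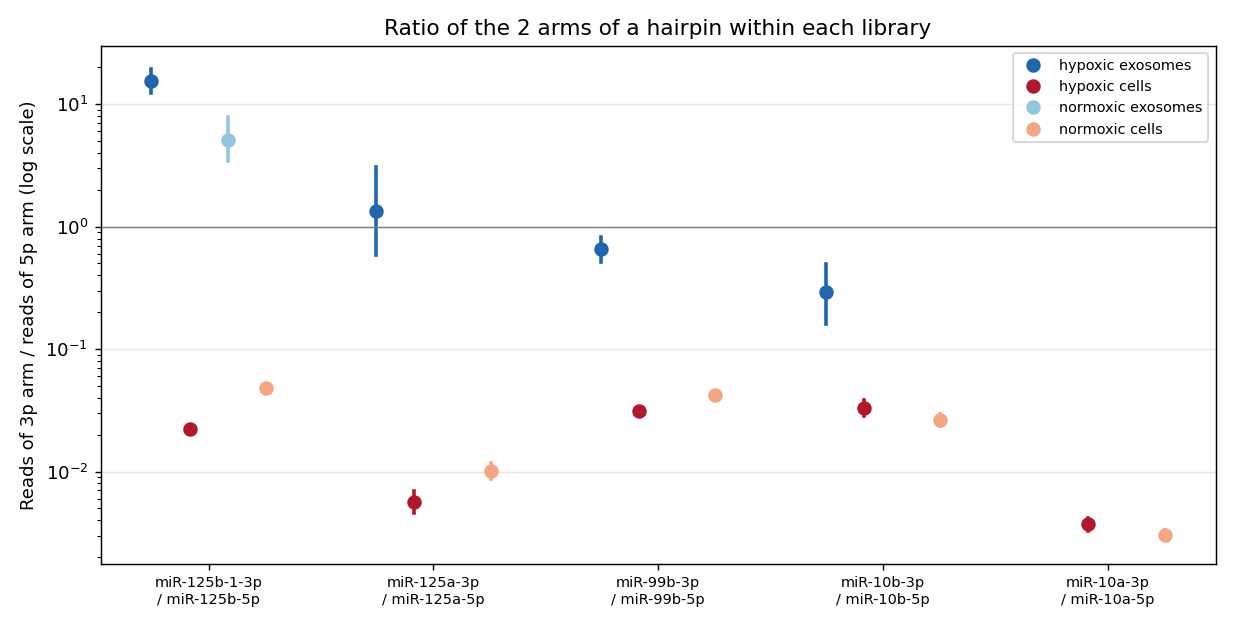
Reads of the 3p arm over reads of the 5p arm in each library on a log axis, with 95% counting intervals, for 5 hairpins of the family. In hypoxic exosomes the ratio is 15.4 for miR-125b-1-3p and 0.290 for miR-10b, and in cells of both conditions every ratio lies below 0.05.

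The letters GGAG were searched in the mature RNAs on their own strand, since these are single-stranded, again a choice made after the data were seen. As background, in human T cells an hnRNP protein was found to bind exosomal miRNAs through this motif. Of 692 mature rat sequences searched, 56 (8.09%) held it. In the family it began at base 17 of miR-125a-3p and of miR-125b-1-3p, and it was not found in any 5p arm shown above. It was also absent from miR-99b-3p and miR-10b-3p, whose exosome over cell share ratios under hypoxia were 4.35 and 3.03. It was not found in miR-125b-2-3p either, which was listed in neither exosome library. Outside the family, miR-351-5p and let-7e-5p held it at base 8. Under hypoxia the 15 miRNAs with GGAG found in both libraries had a median exosome over cell share ratio of 5.75, between 0.126 for miR-351-5p and 80.9, and 11 of them were above 2. The 112 without it had a median of 1.20, between 0.0192 and 122, and 45 of them were above 2. Under normoxia the 5 with GGAG had a median of 12.6 and 4 were above 2, while the 60 without it had a median of 1.14 and 22 were above 2. The ranges overlapped, and the family's own 3p arms are among those counted. Both sets hold only miRNAs that reached the minimum of reads in exosomes and in cells. A miRNA rare in cells, such as miR-125a-3p under hypoxia, could thus enter only with a raised ratio. How far this filter shaped either set was not examined, and miRNAs without a matched sequence were left out. Whether the motif had a part in these ratios was not tested.

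The members come from small clusters of miRNA genes. In the RefSeq annotation of GRCr8, Mir10a lies between Hoxb5 and Hoxb4, and Mir10b lies within Hoxd4 beside Hoxd3. Mir99b, Mirlet7e and Mir125a lie in that order in Spaca6. Mir100, Mirlet7a-2 and Mir125b1 lie in that order within the overlapping genes Mir100hgl and Lnc215, and Mir99a, Mirlet7c1 and Mir125b2 lie in a long noncoding RNA gene. The let-7 miRNAs of these clusters share a seed of their own and are known for promoting differentiation.

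Members of 1 cluster stood in different proportions in exosomes and in cells. miR-100-5p had 3.38 reads for each read of let-7a-5p in hypoxic exosomes (2.70 to 4.26) and 3.08 in normoxic exosomes (1.96 to 4.99), against 0.555 in hypoxic cells (0.546 to 0.565) and 0.545 in normoxic cells (0.536 to 0.553). It had 3.71 reads for each read of miR-125b-5p in hypoxic exosomes (2.94 to 4.72) and 2.67 in normoxic exosomes (1.73 to 4.20), against 0.216 in hypoxic cells (0.213 to 0.220) and 0.250 in normoxic cells (0.247 to 0.254). Of these 3 miRNAs, miR-100-5p was thus the most frequent in exosomes and the least frequent in cells. let-7a-5p and miR-125b-5p are also made from other loci, so these ratios are not ratios of 1 transcript. In the other cluster, miR-99b-5p had 16.1 reads for each read of miR-125a-5p in hypoxic exosomes (9.00 to 31.7), against 1.71 in hypoxic cells (1.68 to 1.75) and 2.64 in normoxic cells (2.59 to 2.69). miR-99b-5p and let-7e-5p kept a closer proportion in cells, 10.1 in hypoxic cells (9.68 to 10.4) and 9.77 in normoxic cells (9.48 to 10.1).

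The let-7 arms of the clusters gave 6 miRNAs found in both libraries of cells, with a median RPM ratio of hypoxic to normoxic cells of 0.519, beside 0.612 over the 316 miRNAs. Of the 6, 2 were below 0.5, where 27.8% of the 316 were, and 0 were above 2, where 1.27% were. By share of miRNA reads they lay between 0.858 and 1.20, so none was below 0.5. Of these, let-7a-5p had 8.18 RPM in hypoxic exosomes, 2.19 RPM in normoxic exosomes, 2755 RPM in hypoxic cells and 4357 RPM in normoxic cells. let-7c-5p had 9.96 RPM in hypoxic exosomes, 2.19 RPM in normoxic exosomes, 2442 RPM in hypoxic cells and 5393 RPM in normoxic cells. let-7e-5p was found in cells alone, with 228 RPM in hypoxic and 442 RPM in normoxic cells. In exosomes over cells the share ratios of let-7a-5p and let-7c-5p were 0.0907 and 0.125 under hypoxia and 0.224 and 0.181 under normoxia, so that like miR-125b-5p their share was lower in exosomes.

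Of the other arms of the family's hairpins, miR-99b-3p was the most abundant, with 10.2 RPM in hypoxic exosomes, a value listed at 0 in normoxic exosomes, 71.7 RPM in hypoxic cells and 184 RPM in normoxic cells. miR-10b-3p had 1.46 RPM in hypoxic exosomes, was listed at 0 in normoxic exosomes, and had 14.7 RPM in hypoxic cells and 28.3 RPM in normoxic cells. Their shares in hypoxic exosomes over hypoxic cells were 4.35 (3.58 to 5.24) for miR-99b-3p and 3.03 (1.76 to 4.92) for miR-10b-3p. Both stood above 1, while the 5p arms of the same hairpins stood below 1. At its share in hypoxic cells, miR-10b-3p would have fallen under 10 reads in hypoxic exosomes, so a listed value could only stand above 1. This did not hold for miR-99b-3p. miR-10a-3p had 21.2 RPM in hypoxic and 37.5 RPM in normoxic cells, miR-100-3p had 0.979 RPM in hypoxic and 1.15 RPM in normoxic cells, and miR-99a-3p was listed at 0 in every library.

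Members with 1 seed can share targets, so levels were summed by seed. The seed CCCUGAG, with miR-351-5p included, summed to 19.3 RPM in hypoxic exosomes, 2.53 RPM in normoxic exosomes, 11043 RPM in hypoxic cells and 12925 RPM in normoxic cells. By RPM the ratio of hypoxic to normoxic was 7.62 in exosomes (5.20 to 11.6) and 0.854 in cells (0.848 to 0.861). By share of miRNA reads it was 0.991 (0.676 to 1.501) in exosomes and 1.62 (1.61 to 1.63) in cells, so that the direction in cells turned with the scale. The sum in normoxic exosomes was miR-125b-5p alone, with the others listed at 0. In cells miR-351-5p had 2637 RPM in hypoxic and 1797 RPM in normoxic cells, a ratio of 1.47 by RPM (1.44 to 1.49), above 1 where the miR-125 5p arms were below 1. By share its ratio was 2.78 (2.73 to 2.83), and the 3 miRNAs were all above 1. The seed ACCCGUA of miR-99b-5p and miR-100-5p summed to 43.2 RPM in hypoxic exosomes, 8.68 RPM in normoxic exosomes, 3824 RPM in hypoxic cells and 6698 RPM in normoxic cells. By RPM its ratio was 4.98 in exosomes (4.03 to 6.21) and 0.571 in cells (0.565 to 0.578). By share it was 0.648 (0.524 to 0.808) in exosomes and 1.08 (1.07 to 1.09) in cells, with the direction turned in both. This sum leaves out miR-99a-5p, for which no sequence was matched, and may thus be incomplete for the miR-99 and miR-100 group. In hypoxic exosomes miR-99a-5p had 36 reads beside 534 in the sum, and in normoxic exosomes 14 beside 103.

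The patterns most like those of 3 members were sought among the 71 miRNAs found in all 4 libraries, by the distance between log2 RPM after each miRNA's own mean was subtracted. This is a description over 4 libraries of very unequal miRNA content. The nearest to miR-10a-5p were miR-99b-5p (distance 0.727), miR-199a-3p (0.775) and miR-222-3p (0.861). The nearest to miR-100-5p were miR-24-2-5p (0.579), miR-181b-5p (0.619) and miR-423-3p (0.677). The nearest to miR-125b-1-3p was miR-129-5p (0.380), with 710 RPM in hypoxic exosomes, 74.4 RPM in normoxic exosomes, 988 RPM in hypoxic cells and 3737 RPM in normoxic cells, then miR-22-3p (0.803) and miR-146a-5p (1.06). No other member was among the 3 nearest of miR-100-5p or miR-125b-1-3p.

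Marker miRNAs of tissues were read in the same libraries. Over all 765 miRNAs, 144 were found in hypoxic exosomes, 74 in normoxic exosomes, 331 in hypoxic cells and 338 in normoxic cells. Of 7 muscle miRNAs, 0 were found in hypoxic exosomes, 1 in normoxic exosomes, 2 in hypoxic cells and 3 in normoxic cells. Among them miR-133a-3p, miR-133b-3p, miR-208a-3p and miR-208b-3p, known from heart and skeletal muscle, were listed at 0 throughout. The muscle miRNAs found were miR-499-5p, with 169 reads in hypoxic and 277 in normoxic cells, miR-206-3p, with 20 reads in hypoxic and 34 in normoxic cells, and miR-1-3p, with 10 reads in normoxic exosomes and 24 in normoxic cells. miR-122-5p, the miRNA of liver, made up 0.172% of miRNA reads in hypoxic exosomes and 0.971% in normoxic exosomes, against 0.00212% in hypoxic cells and 0.00292% in normoxic cells. Of 6 blood and serum miRNAs, 2 were found in hypoxic exosomes, 1 in normoxic exosomes, 2 in hypoxic cells and 3 in normoxic cells, with summed shares of 0.222% in hypoxic exosomes and 0.309% in normoxic exosomes, against 0.000727% in hypoxic cells and 0.000979% in normoxic cells. This sum came mostly from miR-486, with 223 of the 242 reads in hypoxic exosomes and all 42 in normoxic exosomes. miR-142-3p went the other way, with 11 reads in hypoxic and 23 in normoxic cells and none listed in exosomes, and miR-451-5p had 19 reads in hypoxic exosomes and 13 in normoxic cells. miR-122-5p and miR-486 thus held a larger share in exosomes than in cells, as did miR-125b-1-3p and miR-99a-5p. Such a ratio was common, being above 2 for 44.9% of 138 miRNAs under hypoxia and 42.5% of 73 under normoxia. The summed shares of the endothelial and neuronal lists, given below, were higher in exosomes than in cells under normoxia and lower under hypoxia. What part the marker miRNAs had in the family's values was not tested.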

How the data were processed

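Size-selected small RNA from 4 libraries of H9c2 cells and exosomes was sequenced on an Illumina instrument. The authors deposited RPM for 765 rat miRNAs. The submitters' processing notes name the build Rnor 6.0. The counter, the aligner and the kinds of read that entered the scale were not given in the sources used here. Every RPM value was a whole multiple of 1 step (within 0.1 read, 100% of values) and at least 10 steps, and steps were taken as reads, an inference from the values, for totals and intervals. No count model was fitted. Ratios used miRNAs with 10 reads or more in both libraries, with thresholds of 2 and 0.5. Within-library ratios divide reads.

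The rule named all 10 members, their other arms, cluster let-7 miRNAs, miR-351-5p and 3 nearest patterns for each of 3 members. Members, lists, markers and thresholds were chosen with earlier results of these data known. The marker lists covered muscle, blood and serum, liver, endothelium and neurons. Endothelial markers held 0.0184% of miRNA reads in hypoxic exosomes, 0.169% in normoxic exosomes, 0.0326% in hypoxic cells and 0.0285% in normoxic cells, and neuronal markers held 0.0597% in hypoxic exosomes, 0.368% in normoxic exosomes, 0.0795% in hypoxic cells and 0.0730% in normoxic cells. The table and RefSeq names matched for 690 of 765 miRNAs. Because GRCr8 is another build, RefSeq positions served only to name neighbouring and host genes and strand, and no coordinates are given. Alternatives were other scalings (miRNA total with and without miR-21-5p, median ratio, and a separate implementation of the trimmed mean of M values with 30% and 5% trims), a minimum of 50 reads, a pseudocount of 1 RPM and whole intervals. Interval code was tested on simulated data. Code ran under Python 3.11.15, with scipy 1.17.1 for intervals, pandas 2.3.3, matplotlib 3.10.9 for plots and numpy 2.4.6.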

Additional observations from a re-analysis of the deposited data

Results flagged for a closer look

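For 6 members the ratio of hypoxic to normoxic RPM lay above 1 in exosomes and below 1 in cells. With 1 library per group the difference between exosomes and cells was not tested. In exosomes the ratios were 15.1 for miR-10a-5p, 8.83 for miR-125b-1-3p, 8.06 for miR-99b-5p, 4.09 for miR-100-5p, 2.95 for miR-125b-5p and 2.47 for miR-99a-5p. In cells they were 0.464 for miR-10a-5p, 0.342 for miR-125b-1-3p, 0.531 for miR-99b-5p, 0.644 for miR-100-5p, 0.745 for miR-125b-5p and 0.474 for miR-99a-5p. The same held for 63 of the 71 miRNAs found in all 4 libraries, and by share of miRNA reads for 8 of them, while 23 went the opposite way. By share, miR-100-5p was 0.532 in exosomes and 1.22 in cells, miR-125b-5p was 0.383 in exosomes and 1.41 in cells, and miR-10a-5p was 1.96 in exosomes and 0.878 in cells.

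The ratio of miR-125b-1-3p to miR-125b-5p, which no scaling changes, was 2.998 times higher in hypoxic than in normoxic exosomes and stood at 0.459 times in hypoxic over normoxic cells. This difference in direction was not tested either.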

How the results depend on the processing

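In cells the 5 members below 0.5 in hypoxic over normoxic RPM became 0 when scaled to the miRNA total, to that total without miR-21-5p, to a median ratio of 1 or by the trimmed mean of M values, and 3 when the whole interval had to lie below 0.5. The members above 2 were 1 (miR-125b-2-3p) with no minimum and a pseudocount. In exosomes the 6 members above 2 became 0 by the miRNA total, with or without miR-21-5p, and by the trimmed mean, 1 by the median ratio and 2 with a minimum of 50 reads, while 2 were below 0.5 under each of these scalings. They became 4 when the whole interval had to lie above 2, and 5 with a pseudocount of 1 RPM. In the order of the miRNA total, that total without miR-21-5p, the median ratio and the trimmed mean, 3 ratios of hypoxic to normoxic exosomes turned, miR-99a-5p to 0.321, 0.320, 0.367 and 0.315, miR-100-5p to 0.532, 0.531, 0.609 and 0.522, and miR-125b-5p to 0.383, 0.382, 0.438 and 0.375. By RPM in place of shares, members above 2 in exosomes over cells became 0 under both conditions and those below 0.5 became 8 under hypoxia and 6 under normoxia. Most miRNAs were low on that scale, with 125 of all 138 below 1 under hypoxia and 71 of all 73 under normoxia. Their medians were 0.0493 under hypoxia and 0.00304 under normoxia. By RPM miR-99a-5p stood at 0.198 under hypoxia and 0.0379 under normoxia, miR-125b-1-3p at 0.731 and 0.0283, and miR-125a-3p at 0.1704 under hypoxia. Leaving miR-21-5p out of the shares lowered every exosome over cell ratio by 1 factor within a condition, to 11.8 and 5.82 for miR-125b-1-3p under hypoxia and normoxia. It ended no call above 2 or below 0.5. Under hypoxia it raised the members below 0.5 from 5 to 6, with miR-100-5p at 0.290. Scaling to a median ratio of 1 also gave 6 there, with miR-100-5p at 0.366. With a minimum of 50 reads, 1 member was above 2 under each condition and 0 were below 0.5 under normoxia. Each scaling divides all ratios of a comparison by 1 number. A pseudocount of 1 RPM left the 15 single ratios it was applied to within their intervals. No paired analysis was possible because the labels give no replicate numbers and each group was 1 library. Depth limits the exosomes most, since the members had 337 reads in normoxic exosomes in all, 14 of them from miR-99a-5p.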
